A study of Mus musculus with 12 samples.

Results

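The comparison described here set Shank3 transgenic (Shank3 TG) against wild-type mice in RNA from synaptosomal polysomes of the striatum. Its members were 6 of the 12 libraries of the series, taken by genotype and fraction: 3 wild-type and 3 Shank3 TG polysome libraries, compared on log2(value + 1) and paired by library number. The animals of both genotypes were male C57BL/6J mice at postnatal day 70, with no treatment named, and the genotypes differed by the label Shank3 TG alone. The other 6 libraries held synaptosomal input RNA of the same genotypes and enter only where a difference between fractions was tested or where input values stand beside polysome values. The labels used here do not give the promoter, the copy number or the site of the transgene, nor whether a library was made from 1 animal or a pool, so the p-values cover only the spread among these libraries, part of which may be technical. A gene was tested where its value reached 10 in at least 3 of the 6 libraries, which held for 16312 of 21492 genes.

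Synaptosomes are sealed nerve terminals, often with the postsynaptic membrane still attached, that form when brain tissue is homogenized. Polysomes are messengers that carry several ribosomes, so polysomal RNA from synaptosomes samples messengers engaged by ribosomes near synapses, along with those of other cell fragments that copurify. Shank3 is a large scaffold protein of the excitatory postsynaptic density that links glutamate receptor complexes to Homer proteins and the actin cytoskeleton, and in the striatum it acts at the synapses that cortical axons make on medium spiny neurons.

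The libraries carried the messengers of the labelled tissue. Drd1, the dopamine receptor of direct-pathway medium spiny neurons, had values of 16850, 39010 and 16063 in wild-type libraries 1 to 3 and 21663, 43278 and 19879 in Shank3 TG libraries 1 to 3. Library number 2 was the high one in both genotypes, and the groups overlapped. Estimated depth was 76.7 to 102.7 M reads per library, and the correlation between any 2 libraries over the tested genes was 0.969 to 0.99. The number carried much of the variation: the first principal component, with 46.7% of the variance, placed both libraries of number 3 at one end (43.1 and 44.3) and both of number 2 at the other (-29.4 and -42.8). The median absolute log2 difference was 0.158 to 0.184 between the libraries of a pair, against 0.241 to 0.41 between libraries of the same genotype.

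Wild-type polysome library 1 stood apart in messengers made by liver. Summed over 55 liver genes, a list chosen after the values were seen, its value was 19094, against 2395.6 and 601.53 in wild-type libraries 2 and 3. The same sum was 4084.1, 1952.6 and 1170.9 in Shank3 TG libraries 1 to 3. Alb, which encodes serum albumin, stood at 3711.9, 372.0 and 112.9 in wild type and at 786.8, 403.7 and 189.4 in Shank3 TG. Input libraries held these messengers as well, with sums of 3446.7, 3027 and 235 in wild type and 4646.8, 2334 and 777 in Shank3 TG, so the excess of library 1 was in the polysome fraction. Markers of choroid plexus and ependyma, the epithelia that line the ventricles, also differed between libraries rather than by genotype: their sums were 3611.5, 19619 and 19760 in wild type and 4383.5, 2451 and 37276 in Shank3 TG. Their part in the results that follow was not tested. Where leaving out pair 1 moved the polysome difference printed for a gene by over 1.5 times or turned its sign, its value without that pair is given.

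**Figure D1:**
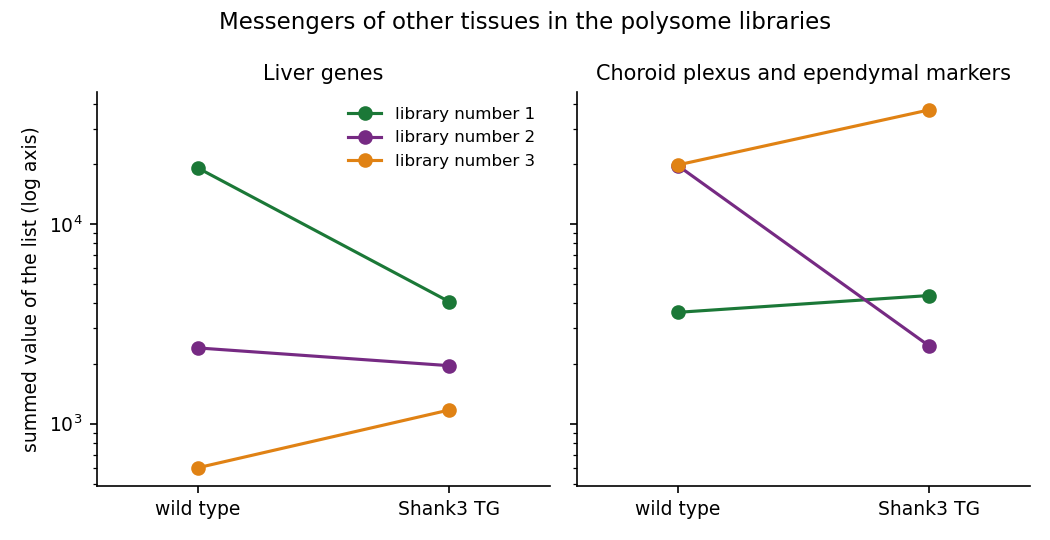
Summed deposited values (log axis) of 55 liver genes (left) and 16 choroid plexus and ependymal markers (right) in each of the 6 polysome libraries, with the libraries of 1 number joined by a line. The liver sum of wild-type library 1 is 19094 and that of every other library is at most 4084.1, while the choroid and ependymal sum is low in both libraries of number 1 and in Shank3 TG library 2.

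Shank3, the gene of the transgene, was the only gene that passed the test across all genes. Its values were 1500.5, 3702.3 and 5848.3 in wild-type libraries 1 to 3 and 5012.2, 12626 and 12252 in Shank3 TG libraries 1 to 3. Every Shank3 TG library was above the wild-type library of its number, by 3.34, 3.41 and 2.09 times, but the groups overlapped, because Shank3 TG library 1 lay below wild-type library 3. The log2 difference was 1.53 ± 0.147 (SE, 3 pairs) with an adjusted p of 0.0205 in limma with Benjamini-Hochberg adjustment. It was the 1 call among 16312 genes, a called share of 0.00613%, and no gene was called lower. Reads of the transgene and of the endogenous gene were counted together, and fewer cells of a type and less RNA per cell cannot be told apart in these bulk libraries.

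The call on Shank3 was lost under several other fits. With the libraries treated as unpaired, the difference was the same but its SE was 0.522 and the adjusted p was 1, and no gene was called, with 53 genes (0.325%) at an unadjusted p below 0.05. The adjusted p was 0.965 without a trend of variance on level, 0.0697 in a fit of all 12 libraries and 0.603 without pair 2. In the input libraries the mean Shank3 difference was 1.57 on the log2 scale, and the test of polysome against input for this difference gave an unadjusted p of 0.829 (limma, interaction -0.04 ± 0.189 SE).

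**Figure D2:**
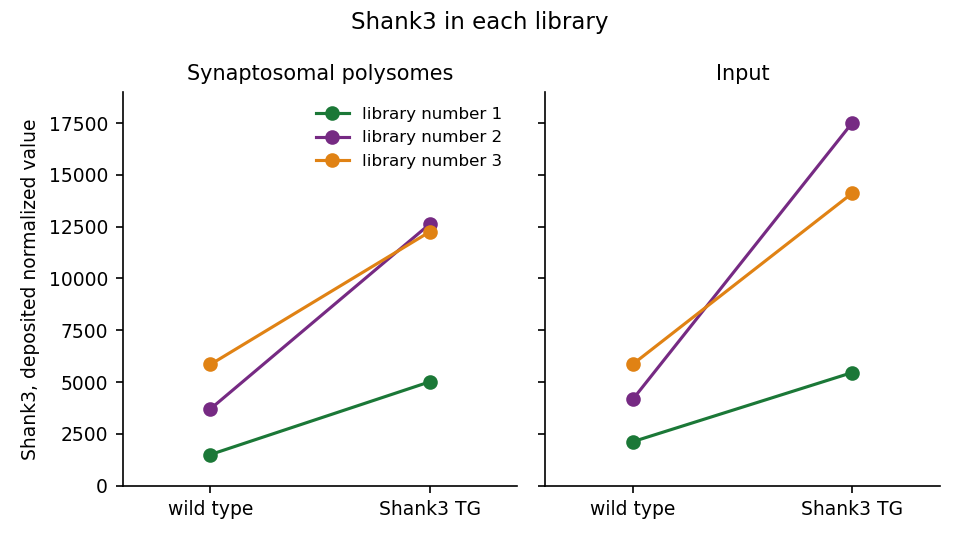
Deposited normalized value of Shank3 in each polysome library (left) and input library (right), with wild-type and Shank3 TG libraries of the same number joined. Each line goes up from wild type to Shank3 TG, from 1500.5 to 5012.2, from 3702.3 to 12626 and from 5848.3 to 12252 in the polysome panel.

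Shank3 has 2 paralogues, Shank1 and Shank2, and the following stretches are printed because they show how far reads can be told apart between the members. They come from the longest protein-coding transcript of each gene in GENCODE M21 (GRCm38), 5′ to 3′, and the capitals mark the longest run of bases that Shank3 has in common with the other gene. The first pair lies in coding exon 4 of Shank3 (chr15:89503163-89503222, plus strand) and coding exon 5 of Shank1 (chr7:44316076-44316135, plus strand), with a common run of 26 bases.
Shank3: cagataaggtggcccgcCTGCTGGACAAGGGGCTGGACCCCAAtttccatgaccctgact
Shank1: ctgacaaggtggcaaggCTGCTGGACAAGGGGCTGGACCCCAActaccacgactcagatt
The second pair lies in coding exon 2 of Shank3 (chr15:89500322-89500381, plus strand) and coding exon 3 of Shank2 (chr7:144052396-144052455, plus strand), with a common run of 18 bases.
Shank3: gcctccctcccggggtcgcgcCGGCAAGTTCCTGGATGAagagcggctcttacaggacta
Shank2: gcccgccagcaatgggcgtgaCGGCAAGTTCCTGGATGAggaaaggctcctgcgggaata
No 31-base sequence of Shank3 was present in either paralogue, and 0.0217% of its 31-base sequences occurred in any other gene.

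Neither paralogue passed the test. Shank1 had values of 1521.6, 1240.7 and 10984 in wild type and 1438.4, 2370.6 and 7684.2 in Shank3 TG. Library number 3 was high in both genotypes, the pair differences were -0.08, 0.93 and -0.52, and the mean difference was 0.11 ± 0.219 (SE, 3 pairs; limma, adjusted p = 1) and 0.21 without pair 1. Shank2 had values of 1722.6, 1597.7 and 3571.8 in wild type and 1736.3, 1974 and 2797 in Shank3 TG, with a mean difference of -0.01 ± 0.135 on the log2 scale, and -0.02 without pair 1.

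Genes next to Shank3 on chromosome 15 were read in the same way, because some transgenes carry flanking genes. Shank3 lies at chr15:89499623-89560261 on the plus strand of GRCm38. Of 19 neighbours listed, 13 were tested, none had the same sign in all 3 pairs, and their log2 differences ran from -0.18 to 0.23 with a median of -0.02. The median of all genes tested was 0.01. The nearest, Rabl2 and Arsa, differed by -0.04 ± 0.135 and -0.02 ± 0.149 (SE), and Mapk8ip2, which encodes a scaffold of the JNK pathway, by 0.03 ± 0.114. Without pair 1 these were -0.09, 0.12 and 0.12.

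The postsynaptic scaffold list held Shank3, its paralogues and their binding partners, 21 genes in all, and none but Shank3 passed the test. The list's log2 differences had a median of -0.01, with pair medians of -0.04, 0.13 and -0.08.

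No other partner of Shank3 passed the test. Dlgap3, a SAPAP protein abundant in striatum, had values of 5232.7, 12186 and 16291 in wild type and 7659.8, 17129 and 15109 in Shank3 TG, higher in pairs 1 and 2 and lower in pair 3, with a mean difference of 0.31 ± 0.145, and 0.19 without pair 1. Homer1, which binds Shank proteins and metabotropic glutamate receptors, was above its pair in all 3 pairs (0.10, 0.27 and 0.08), as 11.1% of all genes were. Dlgap4 was below its pair in all 3 pairs, as 8.34% of all genes were, and its groups did not overlap, at 5069.5, 4928.5 and 5263.3 in wild type against 4600.2, 4608.8 and 4482.4 in Shank3 TG, as held for 0.999% of all genes in this direction. Dlg4, which encodes PSD-95, differed by -0.02 ± 0.128 with pair differences of mixed sign, and by -0.13 without pair 1.

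No receptor gene passed the test. Of 28 glutamate receptor genes and their auxiliary subunits, none had an unadjusted p below 0.05, where 2.69% of all genes tested did, 13 had a mean above 0 and 15 below, and the pair medians were -0.26, 0.02 and 0.22. Gria1, an AMPA receptor subunit, differed by -0.09 ± 0.134, and Grin2b, an NMDA receptor subunit, by -0.15 ± 0.15. Without pair 1 these were 0.02 and 0.03. Of 17 GABA receptor genes, none had an unadjusted p below 0.05 and the median was 0.04. Among 28 postsynaptic signalling genes the smallest p belonged to Camk2d, a calcium- and calmodulin-dependent kinase, at 3464.4, 1724.1 and 2935.5 in wild type and 2772.7, 1393.4 and 2546.9 in Shank3 TG (log2 difference -0.28 ± 0.105, adjusted p = 1 in limma). Among 42 presynaptic release genes, 32 had a mean below 0, where 46.6% of all genes did, but the pair medians were -0.19, -0.006 and 0.03. Only 2 of the 42 were lower in all 3 pairs, where 8.34% of all genes were. The smallest p of the 42 belonged to the SNARE protein gene Stx1a (-0.26 ± 0.111).

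**Figure D3:**
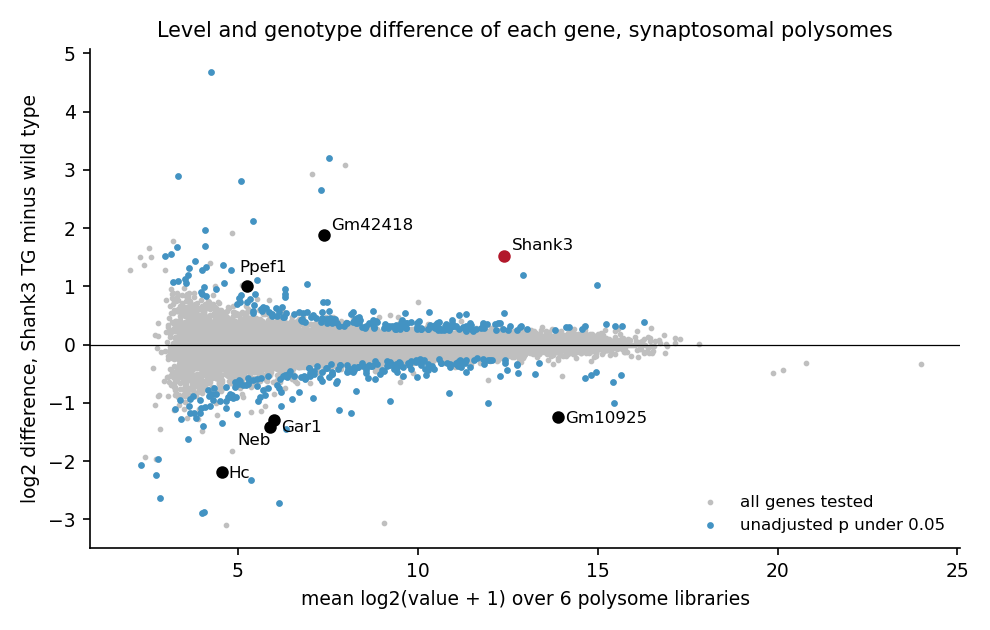
Mean log2(value + 1) over the 6 polysome libraries against the log2 difference, Shank3 TG minus wild type, for the 16312 genes tested. Genes with an unadjusted p below 0.05 are blue, Shank3 (difference 1.53) is red, and 6 other genes named in the text are black.

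No gene beyond Shank3 passed, so the genes with the smallest p are given as values only. At an unadjusted p below 0.05, 214 genes were higher (1.31%) and 224 lower (1.37%), and the groups did not overlap for 224 genes that were higher (1.37%) and 163 that were lower (0.999%), together 2.37%. The pair differences did not go together across genes, with correlations of -0.01, -0.08 and -0.09 between pairs. These are across genes, which are not independent replicates.

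Among genes higher in Shank3 TG, Gpr85, a brain orphan receptor, had the smallest p of the 12 named by level and separation. Its values were 4176.3, 3947 and 5528.6 in wild type and 5539.1, 5580.9 and 8986.9 in Shank3 TG, and the log2 difference was 0.54 ± 0.112 (SE, 3 pairs; limma, adjusted p = 1). The gap between the groups was narrow, from 5528.6 to 5539.1. Hmgb2, a chromatin protein of dividing cells, stood at 141.1, 135.8 and 130.3 against 292.1, 150.4 and 266.6 (0.74 ± 0.201). Gfap, the intermediate filament of astrocytes, stood at 3954.3, 4162.9 and 4564.5 against 4658.3, 4967.1 and 7025.5 (0.37 ± 0.118). Of the 20 astrocyte genes in its list, 11 had a mean above 0 and 9 below, and the median was 0.01. The rest of the 12 were Hist1h3g, Ppef1, AU022252, Gtf2h3, Sike1, Hist1h3c, Kcnh8, Ipo4 and Tnnt1, with differences from 0.35 for Sike1, a regulator of innate kinase signalling, to 1.00 for Ppef1, a calcium-binding phosphatase. Ipo4, an importin, has 53.1% of its 31-base sequences in common with the predicted gene Gm49378. Hist1h3g has 60.2% and Hist1h3c 55.2% of theirs in other genes, so the values of Ipo4 and of both histone genes are uncertain.

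Among genes lower in Shank3 TG, Neb had the smallest p of the 12. It encodes nebulin, the giant ruler protein of muscle thin filaments. Its values were 94.7, 108.1 and 83.8 in wild type and 22.4, 30.9 and 61.3 in Shank3 TG, and the log2 difference was -1.42 ± 0.305 (SE, 3 pairs; limma, adjusted p = 1). Pair 3 gave -0.45, against -2.03 and -1.77 in pairs 1 and 2, and the difference without pair 1 was -1.11. Gar1, a protein of the H/ACA particles that guide pseudouridylation, stood at 104.1, 107.9 and 87.3 in wild type and 83.3, 28.5 and 26.5 in Shank3 TG. Alpl, the tissue-nonspecific alkaline phosphatase, had 218.2, 180.3 and 173.8 against 146.8, 105.7 and 135.0 (-0.57 ± 0.164). The groups of both genes were separate without passing the test. Others were Cyp4f15, Serpinf1, Nol12, Zmym4, Wdr83, Fbxo47, Hemk1 and Mzt1, with differences from -0.30 for Mzt1, a component of the gamma-tubulin ring, to -0.74 for Fbxo47. The difference of Fbxo47 rested on pair 1, with pair differences of -1.45, -0.44 and -0.32, and was -0.38 without that pair (limma, unadjusted p = 0.194). That of Zmym4 went from -0.39 to -0.24 without pair 1.

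The second smallest p of all genes belonged to Hc, the complement component C5, which its low level kept out of the 12 and which is named here after its values were seen. It had values of 100.8, 24.3 and 46.5 in wild type and 17.4, 4.98 and 10.9 in Shank3 TG. The groups did not overlap, each pair was lower in Shank3 TG, and the mean log2 difference was -2.18 ± 0.301 (SE; limma, adjusted p = 0.246). Hc is made mainly in liver and belongs to the liver list, which was chosen after the values were seen. All 55 genes of that list were highest in wild-type library 1. Each was thus lower in pair 1, and the list gives no separate evidence on Hc. Of its 49 genes tested, 6 (12.2%) were lower in all 3 pairs. The share of all genes, 8.34%, is not a like measure, since every listed gene was already lower in pair 1. The pair medians of the list were -2.09, -0.43 and 0.84. Alb differed by -2.24 in pair 1 and by 0.12 and 0.74 in pairs 2 and 3, so that its mean of -0.46 became 0.43 without pair 1.

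Leaving out a pair changed the calls. Without pair 3, 89 of 15850 genes tested were called, 29 higher and 60 lower. Of the 89, 31 were among the 55 listed liver genes and 4 among the 16 listed choroid plexus or ependymal genes. The liver list was chosen after the values were seen, and all its genes were highest in wild-type library 1, which this fit keeps. Shank3 (1.75), Neb (-1.90) and Prlr, the prolactin receptor of choroid plexus (-1.66), were among the 89. Without pair 1, in which the liver messengers differed most, the calls were Shank3 (1.42, adjusted p = 0.00536), the AMPA receptor auxiliary subunit gene Shisa6 (-1.32, adjusted p = 0.0384) and Gm10925 (-1.44, adjusted p = 0.0165), each in limma. With all 3 pairs Shisa6 differed by -0.65 ± 0.344, since pair 1 went the other way (0.70).

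The mitochondrially encoded messengers, which are translated on mitochondrial ribosomes and encode subunits of the respiratory chain, had the lowest median of the lists. Of 13, 12 had a mean below 0, where 46.6% of all genes did, and 7 were lower in all 3 pairs, where 8.34% were. The median was -0.49, with pair medians of -0.54, -0.21 and -0.74. None passed the test. For 5 of the 13 the deposited table also has a nuclear copy, in a stretch of mitochondrial sequence inserted on chromosome 1, and values of gene and copy cannot be told apart by sequence. The stretches below are shown for mt-Atp6, a subunit of ATP synthase, and its copy Gm10925, both from GENCODE M21 (GRCm38). They lie at chrM:8197-8256 on the plus strand and at chr1:24614322-24614381 on the minus strand, and no base is in capitals because capitals would mark a difference.
mt-Atp6: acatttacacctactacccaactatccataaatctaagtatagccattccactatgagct
Gm10925: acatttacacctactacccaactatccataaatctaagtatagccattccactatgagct
Over the 678 bases of Gm10925, 0 differed from mt-Atp6.

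Read separately, the gene and its copy differed in sign. Gm10925 had values of 23637, 18177 and 29974 in wild type and 13026, 4626.6 and 15942 in Shank3 TG, with separate groups and a log2 difference of -1.25 ± 0.199 (SE, 3 pairs; limma, adjusted p = 0.523). The values of mt-Atp6 were 16043, 7321.8 and 1759.6 in wild type and 12556, 17526 and 1327.9 in Shank3 TG, and its difference was 0.17 ± 0.268, or 0.43 without pair 1. Their sum was 39679, 25499 and 31734 in wild type and 25582, 22153 and 17270 in Shank3 TG. Only Shank3 TG library 1 reached into the wild-type range. The summed difference was -0.57 ± 0.149, lower in all 3 pairs (limma, adjusted p = 1).

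With each of the 5 genes summed with its copy, a step chosen after the data were seen, the 13 messengers lay on 1 side of 0. All 13 had a mean below 0, from -0.61 for mt-Nd3 to -0.31 for mt-Nd6 (-0.20 without pair 1). Of these, 11 were lower in all 3 pairs, where 8.34% of all genes were. An unadjusted p below 0.05 was reached by 11, where 1.37% of all genes were lower at that p. The 13 messengers come from the same libraries and are not independent replicates. None passed the adjusted test in limma, and the pair medians were -0.56, -0.23 and -0.74. Mt-Nd4, a subunit of complex I, had the smallest p, with values of 40308, 24497 and 31492 in wild type and 27368, 18521 and 18924 in Shank3 TG and a difference of -0.57 ± 0.127. Wild-type library 2 lay below Shank3 TG library 1, so the groups overlapped. Mt-Nd4 was not summed, though 62.8% of its 31-base sequences occur in the predicted gene Gm28439. Nor was mt-Co1, with 63.9% of its 31-base sequences in other genes, so the values of both are uncertain. In input the pair medians of the 13 were -0.55, 0.22 and 0.40, and only pair 1 was below 0.

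**Figure D4:**
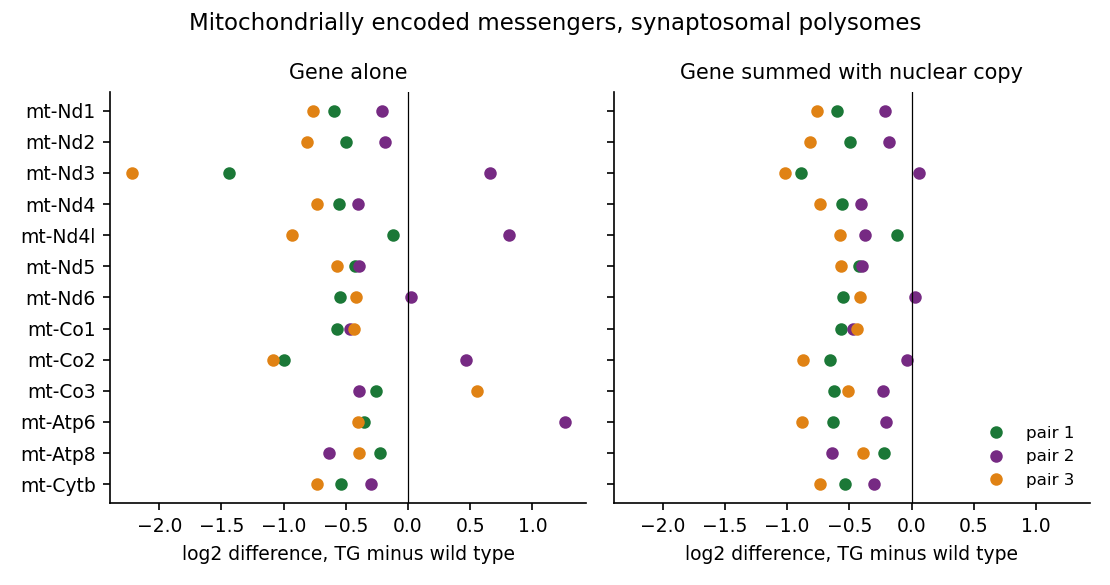
Log2 difference, Shank3 TG minus wild type, of the 13 mitochondrially encoded messengers in each pair of polysome libraries, for the gene alone (left) and for the gene summed with its nuclear copy where the table has one (right). Summing moves mt-Atp6 from 0.17 to -0.57 on average and leaves 11 of 13 messengers below 0 in all 3 pairs.

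The 2 mitochondrial ribosomal RNAs took 34.0%, 25.2% and 32.8% of the signal in wild type and 26.9%, 23.1% and 28.0% in Shank3 TG, lower in each pair with overlapping groups. A two-sided exact permutation test over libraries gave p = 0.3, where the smallest p that 3 against 3 allows is 0.1. The mitochondrial messengers took 2.43%, 1.83% and 2.35% against 1.99%, 1.44% and 1.81% (exact permutation p = 0.2). Of 75 nuclear genes for subunits of the respiratory chain, 42 had a mean above 0, where 53.4% of all genes did. Their median was 0.04 with pair medians of 0.18, -0.27 and 0.13.

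Of 3 listed transcripts that resemble nuclear ribosomal RNA, 2 were higher in all 3 pairs and none passed the test. Gm42418, a predicted gene that overlaps such a repeat, had values of 78.2, 139.9 and 57.7 in wild type and 672.5, 275.7 and 172.2 in Shank3 TG, with separate groups (log2 difference 1.87 ± 0.322 SE; limma, adjusted p = 0.73). In input its pair differences were of mixed sign and larger in pair 2, at -2.75, -4.19 and 1.96. AY036118 had values of 1998.9, 5005.8 and 13325 in wild type and 9011.9, 9141.3 and 19487 in Shank3 TG, higher in each pair with overlapping groups (1.20 ± 0.248, and 0.71 without pair 1). All of its 31-base sequences occur in CT010467.1, annotated as ribosomal RNA, which differed by 1.03 ± 0.247, and by 0.63 without pair 1. How far ribosomal RNA was depleted in each library was not tested.

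All 24 histone genes tested had a mean above 0, where 53.4% of all genes did. The replication-dependent histones package newly made DNA, and their messengers end in a stem-loop in place of a poly(A) tail, which a total RNA kit can capture. Of the 24, 11 were higher in all 3 pairs, where 11.1% of all genes were, and none passed the test. An unadjusted p below 0.05 in limma was reached by 9, where 1.31% of all genes were higher at that p. The 24 genes come from the same libraries and are not independent replicates. The median was 0.23, with pair medians of 0.35, 0.06 and 0.19 in polysomes and 0.47, -0.10 and -0.15 in input. Hist1h3c had values of 287.1, 287.4 and 270.7 in wild type and 383.2, 387.1 and 359.8 in Shank3 TG, alike within each genotype and separate between them (0.42 ± 0.131). Hist1h1a, a linker histone, had 606.3, 749.6 and 722.4 against 830.1, 869.0 and 936.9 (0.35 ± 0.118). Many histone genes share sequence, 55.2% of the 31-base sequences in the case of Hist1h3c. Without members that share more than 50%, 15 of 15 had a mean above 0, 3 had an unadjusted p below 0.05 and the median was 0.11.

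No gene of the translation machinery passed the test. Of 83 ribosomal protein genes, 63 had a mean above 0, where 53.4% of all genes did, but the pair medians were 0.16, -0.16 and 0.18. The 47 translation factor genes had a median of 0.01, and the 40 genes of the mTORC1 pathway, which couples growth signals to translation, a median of -0.02. Of 27 genes for RNA-binding proteins that repress translation, 20 had a mean below 0, where 46.6% of all genes did. In all 3 pairs 6 of the 27 were lower, where 8.34% of all genes were. Ago2, the slicing Argonaute of the microRNA pathway, had 4942.6, 5010.5 and 4127.2 in wild type and 3805.6, 4390.1 and 3494.4 in Shank3 TG (-0.27 ± 0.107; limma, adjusted p = 1). Of 31 proteasome genes, 24 had a mean above 0, where 53.4% of all genes did, and the median was 0.10. Among 60 messengers bound by FMRP, the protein lost in fragile X syndrome, 38 had a mean below 0, where 46.6% of all genes did. The pair medians of these 60 were -0.21, 0.16 and -0.05. Among 24 dendritic messengers the median was 0.06, and Arc, an activity-regulated gene, had 5002.7, 4760 and 4288.6 against 5065.3, 6362 and 5046.6.

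Markers of cell types differed between pairs. Of 24 medium spiny neuron markers, 22 had a mean above 0, where 53.4% of all genes did. In all 3 pairs 9 were higher, where 11.1% of all genes were, and the pair medians were 0.30, 0.14 and 0.02. Tac1, the substance P precursor of direct-pathway neurons, had 18915, 30902 and 20473 in wild type and 25325, 34742 and 26348 in Shank3 TG. Adora2a, the adenosine receptor of indirect-pathway neurons, had 12333, 27465 and 14737 against 16880, 30643 and 18046. For both genes the groups overlapped, library number 2 was highest in both genotypes, and limma gave an adjusted p of 1.

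Of 20 cortical excitatory markers, 16 had a mean below 0, where 46.6% of all genes did, with pair medians of -0.27, -0.15 and 0.06. Cux2, a transcription factor of upper-layer neurons, had 1606.7, 766.2 and 1478.1 in wild type and 863.0, 536.5 and 1241.7 in Shank3 TG (-0.55 ± 0.139). Input gave pair medians of 0.35, 0.17 and -0.04 for the medium spiny neuron markers and -0.45, -0.18 and 0.09 for the cortical ones. The pairs thus ranked in the same order in both fractions. Whether the tissue taken held a different share of striatum and cortex was not tested. Of 7 blood genes tested, all had a mean above 0 (median 0.25), and of 20 oligodendrocyte genes 16 did (median 0.08). The share of all genes with a mean above 0 was 53.4%.

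**Figure D5:**
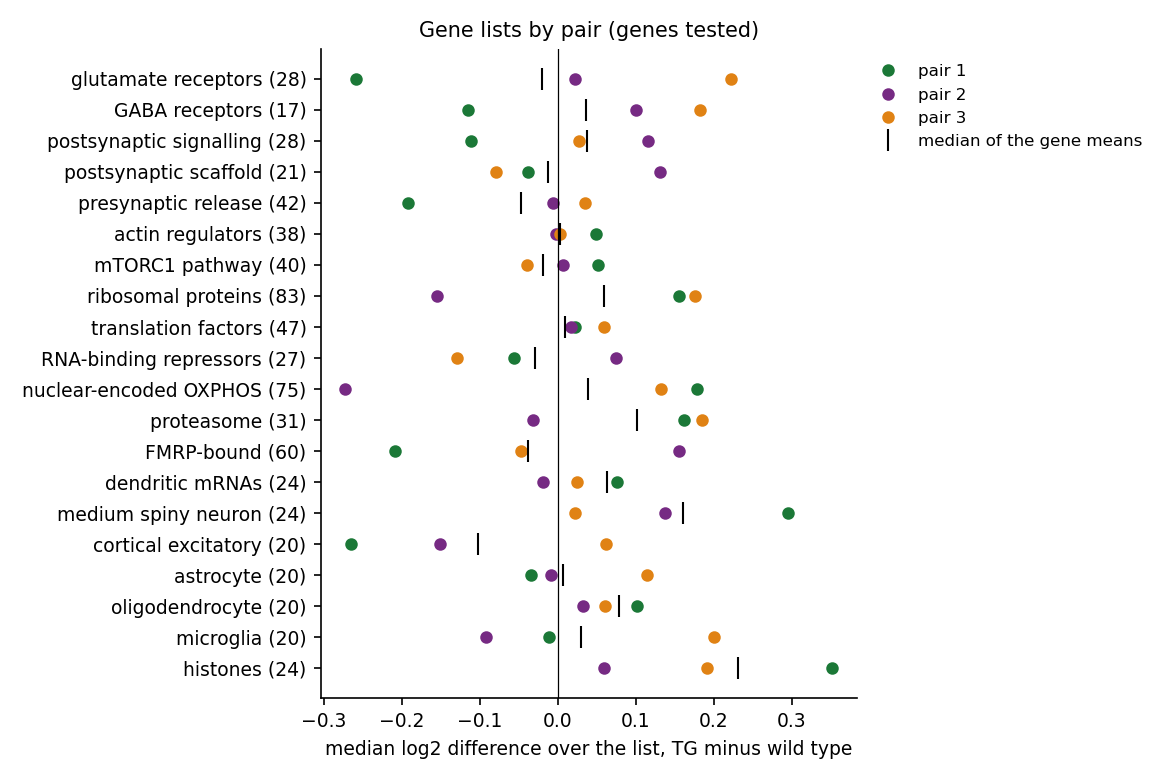
Median log2 difference, Shank3 TG minus wild type, over each of 20 gene lists in each pair of polysome libraries (coloured points) and the median of the gene means (black bar), with the number of genes tested in brackets. For 16 lists the pairs lie on both sides of 0. The histone medians are 0.35, 0.06 and 0.19.

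Several list medians also moved without pair 1. That of the histones went from 0.23 to 0.14, that of the medium spiny neuron markers from 0.16 to 0.09, and that of the cortical markers from -0.10 to -0.02. The presynaptic list went from -0.05 to 0.01, the glutamate receptor list from -0.02 to 0.11, the FMRP-bound list from -0.04 to 0.06 and the nuclear respiratory chain list from 0.04 to -0.06. The median of the mitochondrially encoded messengers was -0.49 with pair 1 and -0.48 without it.

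The difference in genotype effect between polysome and input was tested in all 12 libraries and passed for 0 of 16962 genes in limma, with 209 genes (1.23%) at an unadjusted p below 0.05. The smallest p belonged to Baiap2l2, an I-BAR protein gene, whose polysome values were 45.4, 94.2 and 49.4 in wild type and 44.1, 31.7 and 40.3 in Shank3 TG. Its mean log2 difference was -0.62 in polysomes and 1.36 in input. Its input values were 36.3, 24.1 and 23.6 in wild type and 60.7, 69.5 and 88.8 in Shank3 TG. Its interaction was -1.99 ± 0.463 (SE, log2 scale; adjusted p = 1). Rps6kb2, the gene of an S6 kinase downstream of mTORC1, followed with 1.30 ± 0.306, then Lhcgr (-1.56), Zfp964 (0.96) and Vwa3b (-2.77). Rps6kb2 had polysome values of 147.5, 137.8 and 157.5 in wild type and 158.8, 173.7 and 183.2 in Shank3 TG, and the opposite sign in input, where the mean difference was -1.08.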

How the data were processed

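The table analysed holds the authors' deposited signal, 1 normalized value per gene and library that is not whole and is not scaled to a fixed total. Per the submitters' processing notes, Salmon 1.1.0, R 3.6.2 and DESeq2 1.26.0 were used with GRCm38, and per the labels' protocols library preparation used a stranded kit for total RNA. The sources used here do not give the annotation or the normalization step. Low values lay near multiples of a step read as 1 read, but only 36.7% to 45.5% in the polysome libraries were near whole, so reads were not recovered and no count test was run. Estimated depth comes from this step.

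Symbols, coordinates and transcripts came from GENCODE M21 (21465 of 21492 identifiers matched). Genotypes were compared on log2(value + 1) in limma 3.58.1 (R 4.3.3), a scale that understates changes of low genes, with a trend of variance on level, the library number as a block and Benjamini-Hochberg adjustment at 0.05. The fraction difference was fitted over 12 libraries with the number within genotype as a block. The pairing comes from the shared numbers and the values: deviations from group means correlated at 0.429, 0.534 and 0.596 between same-numbered polysome libraries, and no label explains the numbers. The fit was also run on simulated libraries with the pairing built in, so that run cannot check the pairing itself.

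Genes were named by rule: Shank3, genes that pass, the 12 rises and 12 falls with the smallest p among genes with a mean log2 of at least 5, the same sign in 3 pairs, separate groups and no predicted-gene symbol, the leading members of each list, all scaffold, neighbour and mitochondrial genes, 2 predicted genes and 5 interaction genes. Drd1, Gria1, Grin2b, Hist1h1a, Alb, Hc, Shisa6, AY036118, CT010467.1 and Rps27rt are named outside it, after their values were seen. Some genes that the rule names are not reported here. The members and lists were chosen with earlier results of these data known. Alternatives were the unpaired fit, scalings, pseudocounts, filters, variance models, other libraries in the fit and each pair left out.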

Additional observations from a re-analysis of the deposited data

How the results depend on the processing

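The single call was lost in the fit with no replicate block and in some fits that kept the block. Calls numbered 1 in the fit paired by number and 0 with no replicate block, without a variance trend and with all 12 libraries in 1 fit. The Shank3 difference was 1.53 in each of these, with adjusted p-values of 1, 0.965 and 0.0697 in limma. Leaving out each pair in turn gave 0 to 89 calls, a difference of Shank3 in polysome RNA of 1.403 to 1.754 and 0 to 2 interaction calls. The interaction calls were Gm13835 and Gm42742 without pair 2, and Gm42418 without pair 3. Trimmed-mean scaling, quantile normalization, pseudocounts of 0.5 and 5, no filter, a mean of at least 50 and robust variances each gave 1 call, with adjusted p-values for Shank3 from 0.00207 to 0.0264. With a pair left out, sign was not kept by mt-Nd4l (range -0.53 to 0.35), mt-Co3 (-0.32 to 0.15), mt-Atp6 (-0.38 to 0.45), Alb (-1.06 to 0.43), Shank1 (-0.30 to 0.43), Shank2 (-0.17 to 0.16), Gria1 (-0.19 to 0.0231), Grin2b (-0.27 to 0.0265), Rabl2 (-0.13 to 0.0879), Arsa (-0.25 to 0.12), Mapk8ip2 (-0.0347 to 0.12) or Dlg4 (-0.13 to 0.061). The value of mt-Atp6 summed with its copy was -0.57. Quantile normalization set mt-Co1 to 0, since it has the same rank in every library. What caused each of the other changes was not tested. With a pair left out, 1 residual degree of freedom is left per gene and the spread is pooled across genes. With 3 pairs, a difference that did not pass may still exist, and genes that share sequence with copies have uncertain values.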

Other observations

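Rps27, a ribosomal protein gene, had polysome values of 229.5, 34.6 and 29.6 in wild type and 364.8, 63.7 and 2661.4 in Shank3 TG, and pair 3 alone gave a log2 difference of 6.44. Rps27rt, a retrotransposed copy that has 91.6% of its 31-base sequences in common with Rps27, had 2280.6, 2737 and 2481 in wild type and 2140.8, 2209 and 576.9 in Shank3 TG, and was listed at 0 in all 6 input libraries. Shank3 TG library 3 was thus the highest in Rps27 and the lowest in Rps27rt. The value of each gene alone, and with it the difference of 6.44, is uncertain. How reads were divided between Rps27 and Rps27rt was not tested.

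Long and short genes differed between pairs. In the shortest 4077 genes by exonic length the median log2 difference was 0.07, -0.15 and 0.06 in pairs 1 to 3, and in the longest 4075 it was -0.07, 0.10 and -0.00. Of 69 bidirectional promoter long noncoding RNAs tested, 50 had a mean below 0, where 46.6% of all genes did, with a median of -0.10. Of 12 nuclear long noncoding RNAs, 8 had a mean below 0, and Malat1 stood at 2389.5, 3198.3 and 3808.9 in wild type and 1739.4, 3487.4 and 1804.5 in Shank3 TG.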
